A study of Drosophila melanogaster with 14 samples.

Results

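Cuticle protein genes were taken as the genes whose symbol in the IFM table begins with Cpr and a number, Lcp and a number, Ccp84A, Twdl, Edg and a number, or Acp65A. This rule found 124 genes of 17890 in the IFM table, and all 124 were matched by FlyBase identifier to the wing disc table, which lists 17490 genes. They were 70 Cpr, 26 Twdl, 17 Lcp, 7 Ccp84A and 3 Edg genes and Acp65Aa. Of these, 121 are annotated as protein coding and 3 as pseudogenes (Lcp1Psi, Lcp65APsi and TwdlU).

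The insect cuticle is an extracellular layer that epidermal cells secrete at their apical surface, and it is built from chitin fibres and the proteins that bind them. Most Cpr, Lcp, Ccp84A and Acp65A proteins carry the Rebers-Riddiford motif, through which they bind chitin, whereas the Tweedle (Twdl) proteins form a separate family, and Edg genes were named for their dependence on ecdysone. Each stage of the life cycle makes its own cuticle and draws on its own subset of these genes. Tendon cells, to which flight muscles attach, and tracheae, which supply them with air, are epithelial and also bear cuticle.

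The series asked how loss of Tet, the only TET family gene of Drosophila, alters gene expression in the indirect flight muscles (IFM) and in the larval wing disc, which holds the precursors of these muscles. IFM fibers were dissected from thoraces of pupae at 96 h after puparium formation (APF), and RNA was sequenced from 2 Tet null, 2 Tet catalytic dead (Tet CD), 2 Tet-GFP and 2 wild-type samples. Wing discs came from wandering larvae of the last instar, with 3 Tet null and 3 wild-type samples. Tet null flies lack Tet mRNA and die as pupae, and Tet-GFP carries GFP in frame at the end of Tet. Tet CD was made in the Tet-GFP background, so Tet-GFP served as its control, while wild type (written w11118 in the labels) served as the control of Tet null. The labels number the samples of a group but do not say whether they came from separate cultures or animals, and P values therefore measure only the spread between these samples. One of the Tet null IFM samples, the first, is labelled as disc tissue, whereas title, age and table place it in IFM, where it was kept.

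The deposited values are RPKM, reads scaled to gene length and library size. From the spacing of the low values, a single read on a 1 kb gene was worth 0.0204 to 0.0280 RPKM in IFM and 0.0320 to 0.0465 RPKM in wing discs. In IFM the Tet transcript was at 0.405 and 0.219 RPKM in Tet null, 4.19 and 3.77 RPKM in Tet CD, 3.96 and 3.66 RPKM in Tet-GFP and 2.04 and 3.01 RPKM in wild type. In wing discs Tet was at 0.352 to 0.475 RPKM in Tet null and at 148 to 205 RPKM in wild type. Flight muscle markers summed to 32039 to 41403 RPKM in the 8 IFM libraries and to 29.8 to 81.9 RPKM in the 6 wing disc libraries. The second wild-type wing disc library stood apart, with 976 genes at 0, against 2376 to 3978 in the other 5, and with 120 of the 124 cuticle protein genes at 1 RPKM or more, against 33 to 44. Fold changes and counts of called genes in wing discs are therefore given with it and, where stated, without it. In bulk RNA, fewer cells of a type and less RNA per cell cannot be told apart.

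The genes are grouped in the genome (dm6 coordinates). With a gap of at most 20 kb between neighbours, 95 of the 124 genes lay in 17 clusters of 2 or more, and 29 lay alone. The largest cluster, with 19 genes, spans chr3L:6130386-6161589 and holds Lcp65A genes, several Cpr65A genes and Acp65Aa. A further cluster at chr3R:26619118-26641054 holds 12 Twdl genes. The Ccp84A genes and Edg84A form a cluster of 8 at chr3R:6684445-6704903, and Cpr64Aa to Cpr64Ad lie together at chr3L:4207838-4216414. The genes are short, with a median exon length of 846 bases, and 77 of them have 2 exons.

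In IFM, 30 of the 124 genes reached a mean of 1 RPKM over the 8 libraries and 17 reached 10 RPKM. A small number of genes made up most of the signal, as the 3 highest in each library held 61.1 to 80.3% of the summed RPKM of all 124. The highest means were those of Ccp84Ae (645 RPKM), Cpr64Ad (443 RPKM) and Cpr64Aa (368 RPKM), all chitin-binding cuticle protein genes by their motif. Ccp84Ag (91.6 RPKM), Cpr30F (89.5 RPKM), Twdlbeta (73.8 RPKM), Cpr49Ae (45.1 RPKM) and Cpr30B (41.6 RPKM) followed, and in each of these the highest of the 8 libraries was several times the lowest. The ratio of the highest to the lowest library was 7.07 for Ccp84Ae, 4.48 for Cpr64Aa, 52 for Twdlbeta and 269 for Cpr30B. No Lcp gene, named for larval cuticle, reached a mean of 1 RPKM in IFM, and none of the 12 Twdl genes of the cluster on 3R did. Acp65Aa, which encodes an adult cuticle protein, averaged 15.7 RPKM.

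The summed RPKM of the 124 genes was 837 and 691 in Tet null IFM, 1882 and 3258 in Tet CD, 1340 and 1620 in Tet-GFP and 3363 and 3213 in wild type. Both Tet null libraries had the lowest sums, the Tet-GFP libraries lay between, and Tet CD replicate 3 was as high as wild type. Numbers of genes at 0 were also unequal, since Tet null replicate 2 had 11 of the 124 genes at 0, against 28 to 53 in the other 7 IFM libraries. This was so over all genes, with 1833 at 0 in that library, against 3285 to 4801 in the others. Its lower quartile was 0.0938 RPKM, against 0 to 0.0448 RPKM. Values far below 0.1 RPKM come from a handful of reads.

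**Figure D1:**
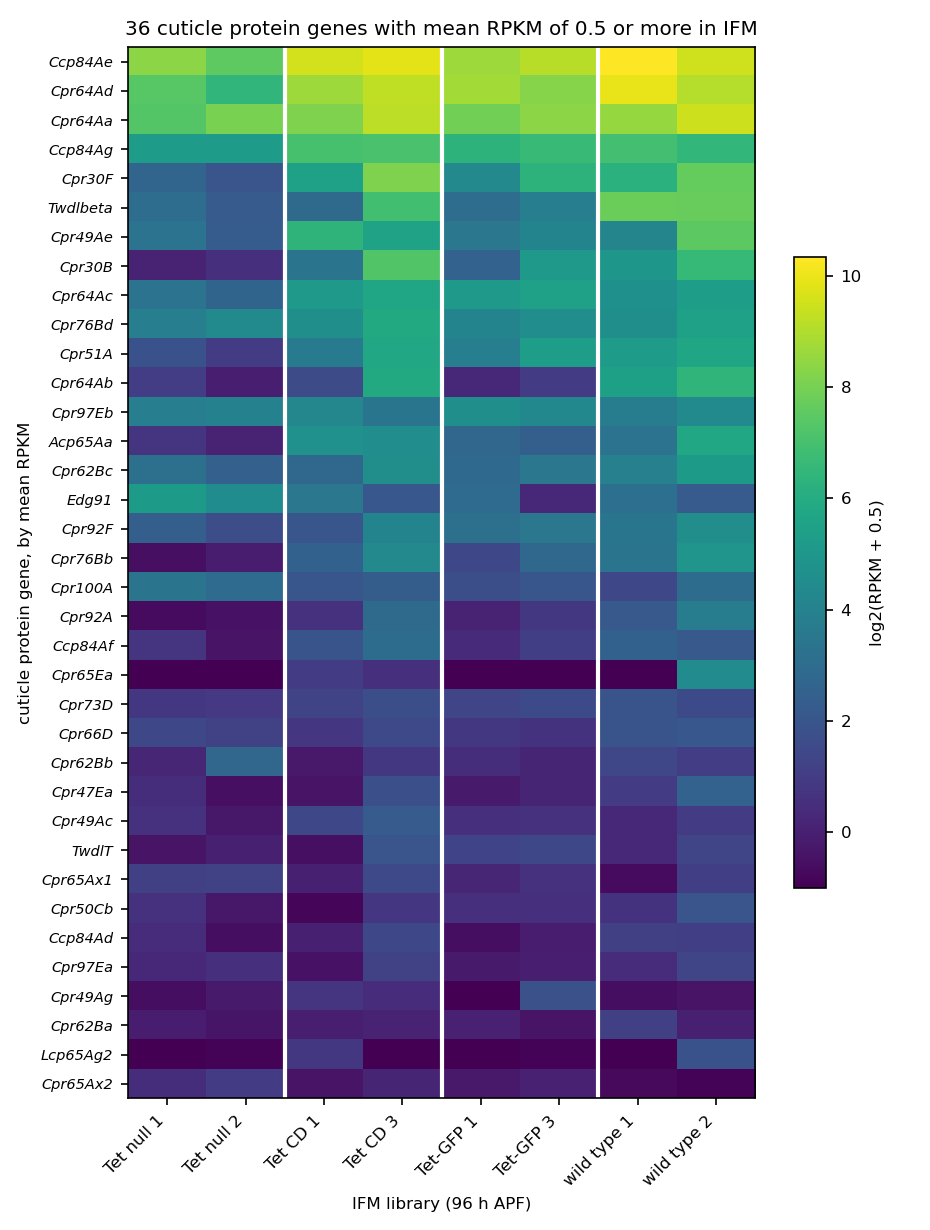
Level of the 36 cuticle protein genes with a mean of 0.5 RPKM or more over the 8 IFM libraries, as log2(RPKM + 0.5). Rows are genes in order of their mean and columns are single libraries, with white lines between the genotypes. Ccp84Ae, Cpr64Ad and Cpr64Aa are high in every library, while genes such as Twdlbeta, Cpr64Ab and Cpr30B are dark in both Tet null libraries and bright in both wild-type libraries and in Tet CD 3.

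Wing discs used a different set. With the second wild-type library left out, 42 genes had a mean of 1 RPKM or more in wing discs, of which 31 were below it in IFM and 11 were above it in both tissues. A further 19 genes passed this level in IFM alone, and 63 passed it in neither tissue, among them Cpr57A and Cpr67Fb, which were listed at 0 in all 14 libraries. The highest means in wing discs were those of Lcp4 (202 RPKM), Lcp1 (151 RPKM), Cpr12A (107 RPKM), Cpr49Ac (78.2 RPKM) and Cpr64Aa (66.5 RPKM). Of the 17 Lcp genes, 9 reached 1 RPKM in wing discs, and so did all 4 Twdl genes of the cluster on the X chromosome (TwdlX, TwdlY, TwdlZ and Twdlalpha). In the cluster of Edg84A and Ccp84A genes the order was the other way round, with 3 of the 7 Ccp84A genes at 1 RPKM or more in IFM and 0 in wing discs. Only Cpr51A and Cpr64Aa reached 10 RPKM in both tissues. All 4 genes of the Cpr64A cluster reached 1 RPKM in both. The tables of the tissues were normalized separately, and these levels were not tested against each other.

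**Figure D2:**
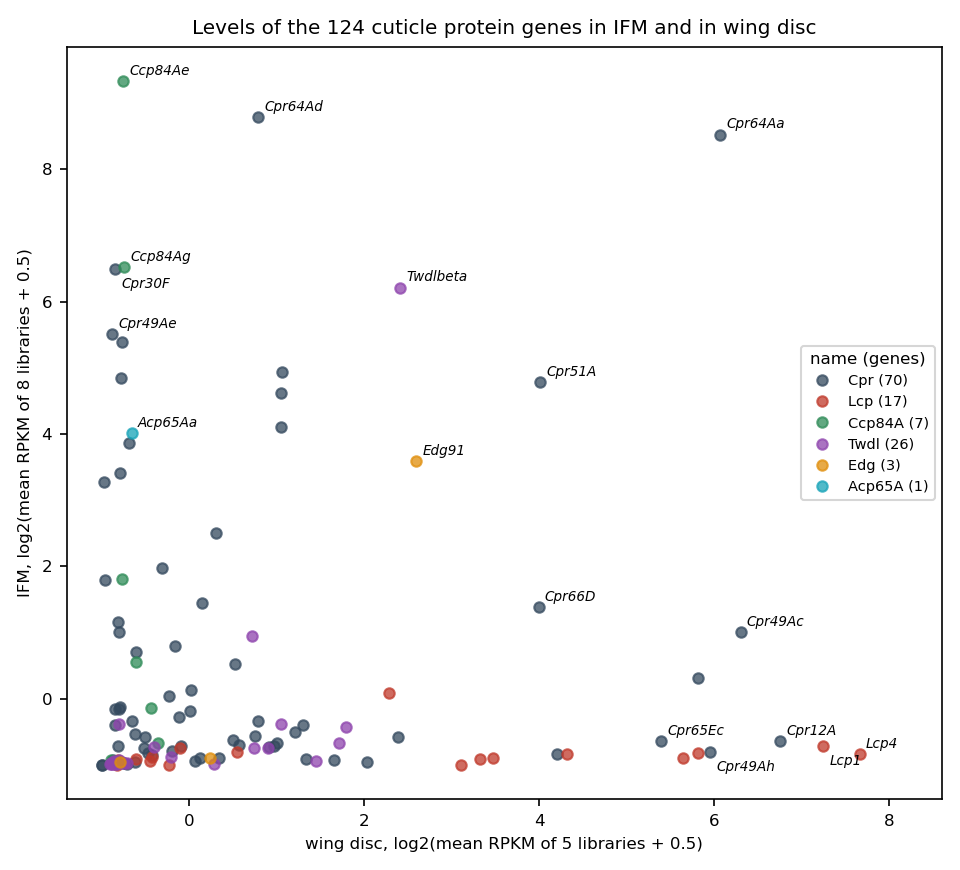
Mean level of each of the 124 cuticle protein genes in wing disc (x axis, 5 libraries, without wild-type replicate 2) and in IFM (y axis, 8 libraries), both as log2(mean RPKM + 0.5). Each point is a gene, coloured by its name group. Lcp genes lie along the bottom, some of them high in wing disc only, Ccp84A genes along the left, and Cpr64Aa and Cpr51A are high in both.

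Loss of Tet was first examined in IFM, with Tet null against wild type. Of the 124 genes, 38 passed the limit of a mean of 0.5 RPKM in these 4 libraries, and 10 of the 38 were lower and 1 was higher in Tet null (adjusted P under 0.05, over 1.5-fold). By the same limits, 2.79% of all 8466 genes tested were lower and 5.5% were higher in Tet null. The median log2 fold change was −1.35 over the 38 cuticle protein genes and −0.03 over all genes tested. The estimate was negative for 33 of the 38 genes. Tet null and wild-type libraries did not overlap for 27 genes that were lower and 3 that were higher, against 30.2% and 29% of all genes. These counts are of genes that passed the limit, which a gene could do through its wild-type level alone, and the other 86 genes were not tested. All changes are on the scale of log2(RPKM + 0.5), which understates those of low genes, and were tested with limma.

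Within the Cpr64A cluster 3 of 4 genes fell. Cpr64Ab was at 1.59 and 0.479 RPKM in Tet null and at 43.2 and 84.7 RPKM in wild type (log2 fold change −5.41, SE 0.52, adjusted P 0.022 from limma). Cpr64Ac had 9.51 and 5.74 RPKM in Tet null and 25.0 and 39.2 RPKM in wild type (log2 fold change −2.01, SE 0.37, adjusted P 0.049 from limma). Cpr64Ad, among the 3 highest cuticle protein genes of IFM, had 168 and 87.9 RPKM in Tet null, against 1005 and 533 RPKM in wild type, a log2 fold change of −2.58 (SE 0.49) with an adjusted P just under the limit. In all 3 genes both Tet null libraries lay below both wild-type libraries. The fourth gene, Cpr64Aa, had 158 and 265 RPKM in Tet null and 369 and 708 RPKM in wild type, and its log2 fold change of −1.32 (SE 0.45) did not pass the test (adjusted P 0.16 from limma).

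The remaining genes that fell are spread over other sites. Cpr30B (chr2L:9542878-9543658) had 0.573 and 1.0 RPKM in Tet null and 31.7 and 96.7 RPKM in wild type, the largest fall of the 38 genes (log2 fold change −5.46, SE 0.58, adjusted P 0.025 from limma). Its neighbour at some distance, Cpr30F (chr2L:9932272-9933163), had 5.88 and 3.45 RPKM in Tet null and 75.8 and 202 RPKM in wild type (log2 fold change −4.63, SE 0.56, adjusted P 0.028). For both genes wild-type replicate 2 was more than 2-fold above replicate 1, and the Tet null libraries lay far below either. The Tweedle gene Twdlbeta (chr2R:11862537-11863252) had 7.87 and 4.24 RPKM in Tet null, against 220 and 210 RPKM in wild type, and with close replicates gave the lowest adjusted P among the 38 (log2 fold change −5.10, SE 0.35, adjusted P 0.018 from limma). Cpr51A had 3.13 and 1.53 RPKM in Tet null and 38.4 and 51.2 RPKM in wild type (log2 fold change −4.05, SE 0.37, adjusted P 0.020). Cpr76Bb was at 0.195 and 0.449 RPKM in Tet null and at 9.74 and 29.6 RPKM in wild type, and Cpr92A at 0.134 and 0.236 RPKM in Tet null and at 4.05 and 13.2 RPKM in wild type. The log2 fold changes of this pair were −4.44 (SE 0.56) and −3.53 (SE 0.56), with adjusted P values of 0.029 and 0.039 from limma.

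In the Ccp84A cluster, 5 genes were tested and only Ccp84Ag was called. It had 37.4 and 36.2 RPKM in Tet null and 121 and 90.7 RPKM in wild type (log2 fold change −1.50, SE 0.26, adjusted P 0.045 from limma). Ccp84Ae had 327 and 182 RPKM in Tet null and 1287 and 722 RPKM in wild type, and Ccp84Af had 1.18 and 0.246 RPKM in Tet null and 5.27 and 3.96 RPKM in wild type. The groups did not overlap for either gene, but their adjusted P values were 0.071 and 0.057. Acp65Aa showed the same order, with 1.15 and 0.596 RPKM in Tet null and 9.34 and 54.3 RPKM in wild type, and with wild-type libraries this far apart its adjusted P was 0.061 (log2 fold change −4.11, SE 0.86). Cpr49Ae, also high in IFM, had 9.47 and 4.43 RPKM in Tet null, against 17.5 and 175 RPKM in wild type (log2 fold change −3.00, adjusted P 0.19 from limma).

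Genes with a positive estimate were few. The called gene was Cpr65Ax2, in the cluster on 3L, with 0.908 and 1.45 RPKM in Tet null and 0.108 and 0.0382 RPKM in wild type (log2 fold change 1.53, SE 0.27, adjusted P 0.045 from limma). Its wild-type values correspond to 3 reads and 1 read, and its Tet null values to 31 and 52 reads. Cpr65Ax1, a close neighbour of nearly the same name, had as many estimated reads as Cpr65Ax2 in 4 of the 8 IFM libraries, so that reads shared between these genes make both values uncertain. Cpr65Ax1 itself had 1.71 and 1.83 RPKM in Tet null and 0.135 and 1.65 RPKM in wild type and did not pass the test (adjusted P 0.39). The ecdysone-dependent gene Edg91 (chr3R:17610856-17611511) had the largest positive estimate, with 35.6 and 22.2 RPKM in Tet null and 8.33 and 4.21 RPKM in wild type. Both Tet null libraries were above both wild-type libraries, but the adjusted P of its log2 fold change of 2.15 (SE 0.42) was 0.054.

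With 2 libraries a group the calls depended on each library, although the direction of the median did not. Without Tet null replicate 1, Tet null replicate 2 or wild-type replicate 2, 0 cuticle protein genes were called in either direction, and without wild-type replicate 1, 6 were called lower and 0 higher. Over all genes these first 3 fits called 0 genes as well, and the fit without wild-type replicate 1 called 35 lower and 12 higher of 8414. In these 4 fits the median log2 fold change of the genes tested lay between −1.79 and −1.21. Without a limit on low values, 119 of the 124 genes were tested and 4 were called lower, against 49 of all 16521 genes. The median was then −0.03, the added genes having means under 0.5 RPKM. With all 4 IFM groups in one fit, 7 were called lower and 1 higher, against 263 and 286 of all 8466 genes. Cpr30B, Cpr30F, Cpr64Ab, Cpr92A and Twdlbeta lost their calls, with adjusted P values of 0.054 to 0.067 from limma, while Acp65Aa and Ccp84Ae gained one.

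**Figure D3:**
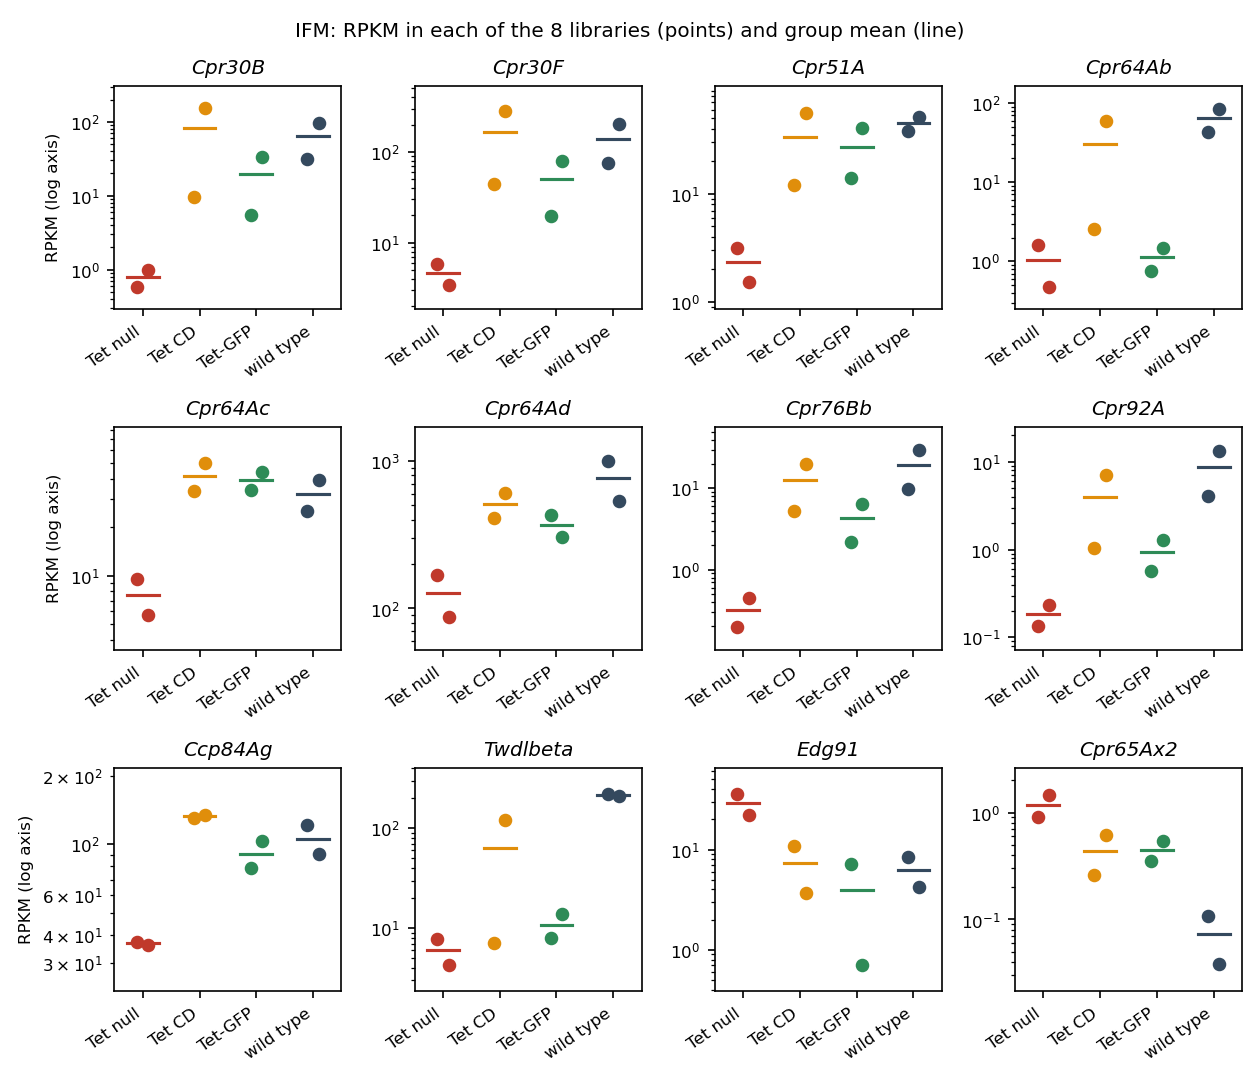
RPKM of 12 cuticle protein genes in each IFM library (points, log axes that differ between panels), with the mean of each genotype as a line, for 2 Tet null, 2 Tet CD, 2 Tet-GFP and 2 wild-type libraries. The first 10 panels are the genes called lower in Tet null against wild type, and Cpr65Ax2 is the gene called higher. In Cpr64Ab and Twdlbeta the Tet-GFP libraries lie with Tet null, at 0.751 and 1.49 RPKM and at 7.89 and 13.7 RPKM, while in Cpr64Ac they lie among those of Tet CD and wild type, at 34.1 and 43.8 RPKM.

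Tet null was next set against Tet-GFP, the strain that carries the tag but keeps Tet. Of 32 genes tested, 0 were called lower and 0 higher, against 0% and 0.0119% of 8369 genes. At an unadjusted P under 0.05 from limma, 12 cuticle protein genes were lower and 5 higher in Tet null, against 12.5% and 14.1% of all genes, and the median log2 fold change was −0.56 over the 32 genes and −0.04 over all genes. With voom on reads recovered from the RPKM values, tried after the data had been seen, 0 were called as well. The largest negative estimates were those of Cpr30B (−3.50, SE 0.90), Cpr51A (−3.16, SE 0.62) and Cpr30F (−3.01, SE 0.76), with adjusted P values of 0.14, 0.12 and 0.14. Cpr51A had 3.13 and 1.53 RPKM in Tet null, against 14 and 40.4 RPKM in Tet-GFP. Acp65Aa had 1.15 and 0.596 RPKM in Tet null and 6.19 and 4.94 RPKM in Tet-GFP, and Cpr64Ac had 9.51 and 5.74 RPKM in Tet null and 34.1 and 43.8 RPKM in Tet-GFP. In Acp65Aa and Cpr64Ac Tet null lay below Tet-GFP in all libraries, but their adjusted P values were 0.10 from limma. The largest positive estimates were those of Edg91 (3.24, SE 0.97), Cpr100A (1.28, SE 0.25) and Cpr62Bb (1.16), of which Cpr62Bb turned to −0.11 without Tet null replicate 2. Edg91 had 35.6 and 22.2 RPKM in Tet null and 7.17 and 0.701 RPKM in Tet-GFP. Without Tet-GFP replicate 1, 4 cuticle protein genes were called lower (Cpr30B, Cpr30F, Cpr51A and Cpr76Bb) and Edg91 was called higher, against 98 lower and 156 higher of all 8427 genes.

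Tet-GFP itself was not at the wild-type level for many of these genes. Against wild type, 0 of 37 genes were called lower and 0 higher in Tet-GFP, as were 0% of all 8156 genes in either direction, and the median log2 fold change was −1.03, against −0.02 over all genes. At an unadjusted P under 0.05, 9 cuticle protein genes were lower and 0 higher, against 5.93% and 4.4% of all genes, and voom on the recovered reads called Twdlbeta lower. The largest negative estimates were −5.27 for Cpr64Ab (SE 0.45, adjusted P 0.12 from limma) and −4.30 for Twdlbeta (SE 0.32, adjusted P 0.10 from limma). Cpr64Ab had 0.751 and 1.49 RPKM in Tet-GFP and 43.2 and 84.7 RPKM in wild type, and Twdlbeta had 7.89 and 13.7 RPKM in Tet-GFP and 220 and 210 RPKM in wild type. For these genes Tet-GFP was thus far below wild type in every library, and the estimates of Tet null against Tet-GFP were small, at −0.14 for Cpr64Ab and −0.79 for Twdlbeta. Cpr65Ea was listed at 0 in both Tet-GFP libraries and in wild-type replicate 1 and stood at 21.3 RPKM in wild-type replicate 2 (412 reads), so that its estimate rests on that library. The largest positive estimates were 0.90 for Cpr49Ag, 0.54 for TwdlT and 0.38 for Cpr97Eb. The comparisons of Tet null with wild type, of Tet null with Tet-GFP and of Tet-GFP with wild type share libraries, and their values are set side by side here without a test.

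The Tet CD allele, which is mutated in the catalytic domain, was compared with Tet-GFP. Of 35 genes tested, 0 were called in either direction, as were 0% of all 8141 genes. On simulated data the same fit recovered 0% of 2-fold and 0% of 4-fold changes, so 0 calls do not show an absence of change. The estimates were positive for 30 of the 35, with a median log2 fold change of 0.56, against −0.01 over all genes. At an unadjusted P under 0.05 from limma, 0 cuticle protein genes were lower and 6 higher in Tet CD, against 2.7% and 3.37% of all genes, and voom on the recovered reads called 0. Acp65Aa had 26.2 and 23.2 RPKM in Tet CD and 6.19 and 4.94 RPKM in Tet-GFP, the lowest adjusted P of the 35 genes (log2 fold change 2.06, SE 0.20, adjusted P 0.24 from limma). Cpr49Ae had 81.3 and 45.8 RPKM in Tet CD and 10.8 and 16.8 RPKM in Tet-GFP (log2 fold change 2.14, SE 0.41, adjusted P 0.53). Both genes were higher in each Tet CD library than in either Tet-GFP library. Cpr64Ab had the largest estimate, 3.10, with an SE of 1.57, as its Tet CD libraries stood at 2.58 and 58.9 RPKM and its Tet-GFP libraries at 0.751 and 1.49 RPKM. The largest negative estimates were −0.64 for Cpr97Eb, −0.62 for TwdlT and −0.54 for Cpr50Cb, and without Tet CD replicate 1 those of TwdlT and Cpr50Cb turned to 0.63 and 0.27. The median was 1.09 without Tet CD replicate 1 and 0.16 without Tet CD replicate 3.

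Replicates of Tet CD and of wild type were far apart for many genes of this group. Of 36 genes with a mean of 0.5 RPKM or more over the 8 IFM libraries, 19 were more than 2-fold higher in Tet CD replicate 3 than in Tet CD replicate 1, against 3.84% of 8344 genes, and 2 showed the reverse. In the same way 15 of the 36 were more than 2-fold higher in wild-type replicate 2 than in wild-type replicate 1, against 5.12% of all genes, and 1 showed the reverse. Twdlbeta, for example, stood at 7.05 and 120 RPKM in the Tet CD libraries, and Cpr30B at 9.75 and 154 RPKM. Fewer genes differed this much in Tet-GFP, with 5 higher in replicate 3 and 1 in replicate 1, against 7.89% and 4.82% of all genes. In Tet null 5 were higher in replicate 1 and 1 in replicate 2, against 3.07% and 3.27%. For 14 of the 36 genes the 3 highest libraries were both wild-type libraries and Tet CD replicate 3, against 5.76% of all genes, an order that was looked for after the values had been seen. In 13 of the 36 both Tet null libraries were the lowest or tied for the lowest, against 17% of all genes counted in the same way. Cpr65Ea was such a tie, at 0 in both Tet null and both Tet-GFP libraries and in wild-type replicate 1.

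**Figure D4:**
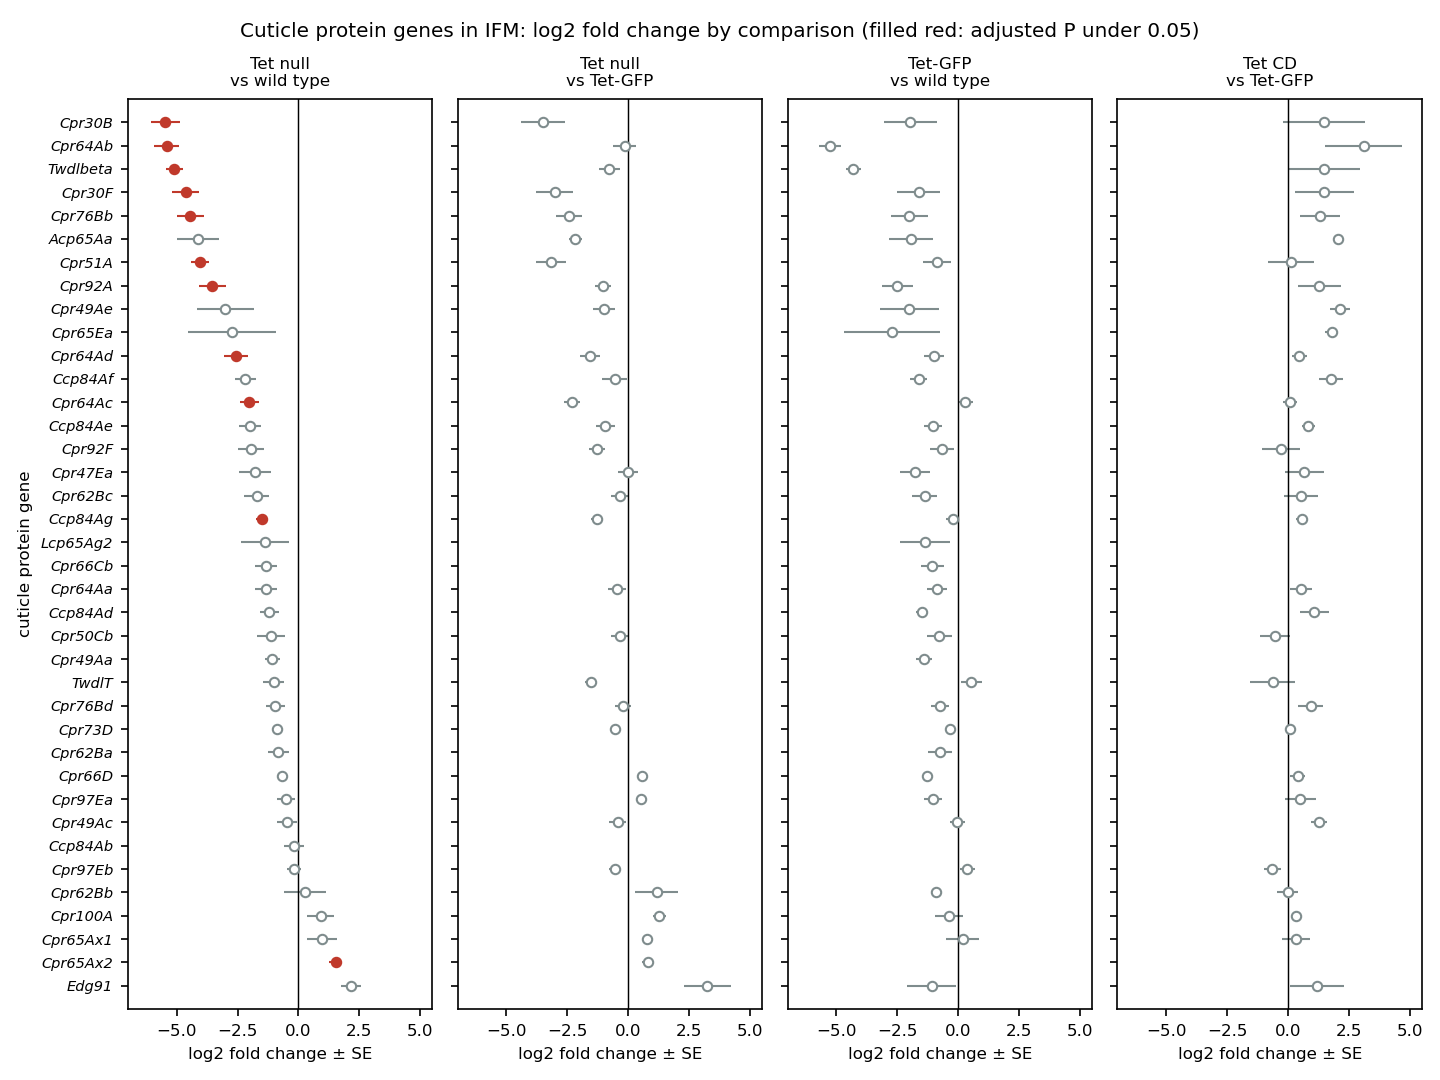
Log2 fold change with its SE (limma, log2(RPKM + 0.5)) of the 38 cuticle protein genes tested in Tet null against wild type, in each of the 4 IFM comparisons. Genes are in the same order in every panel, from the most negative to the most positive in the first, and a gene without a point did not pass the limit on low values in that comparison. Filled red points mark genes called by both limits (adjusted P under 0.05, over 1.5-fold), which occur in the first panel only. The estimates lie mostly left of 0 in the first 3 panels and mostly right of 0 in the fourth.

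Whether the effect of losing Tet differed from that of the Tet CD allele was tested directly over the 8 IFM libraries, as the Tet null minus wild type difference less the Tet CD minus Tet-GFP difference. The alleles have different controls, so a difference between Tet-GFP and wild type enters this contrast and cannot be told apart from it. For Cpr64Ab and Twdlbeta, Tet-GFP was far below wild type, as given above. Of 36 genes, 0 were called lower and 0 higher, against 0.455% and 0.228% of 8344 genes. At an unadjusted P under 0.05 from limma, 20 cuticle protein genes were lower and 1 higher, against 10.1% and 8.6% of all genes, and the median difference was −2.07 over the 36 and −0.01 over all genes. The lowest adjusted P was that of Ccp84Ag, 0.060, with a difference of −2.06 on the log2 scale (SE 0.32). Acp65Aa followed with a difference of −6.17 (SE 1.05, adjusted P 0.072 from limma), and the largest difference was that of Cpr64Ab, −8.51 (SE 1.84, adjusted P 0.099 from limma). Ccp84Ag had 37.4 and 36.2 RPKM in Tet null, 131 and 135 RPKM in Tet CD, 78.6 and 103 RPKM in Tet-GFP and 121 and 90.7 RPKM in wild type. Its Tet null libraries were the lowest and its Tet CD libraries the highest of the 8. Without Tet CD replicate 1, Cpr64Ab and Twdlbeta were called lower, against 102 lower and 26 higher of all 8366 genes. Without wild-type replicate 1 the median difference was −2.32 over the 35 genes then tested, and wild type was replicate 2 alone. In that library Acp65Aa had 1194 reads and Cpr65Ea 412 reads, against 218 and 0 reads in wild-type replicate 1. The estimates of these genes in that fit rest on replicate 2.

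Other genes of cuticle formation were examined as lists. Chitin synthesis and assembly genes moved down in part, as 5 of 14 tested were lower and 0 higher in Tet null IFM against wild type, with a median log2 fold change of −0.88. The 5 were Cda5 (−2.31) and Cda4 (−1.47), which encode chitin deacetylases, exp (−2.18) and reb (−1.82), which are needed for chitin deposition, and obst-B (−2.12), which encodes a chitin-binding protein. Of the cuticle proteins outside the symbol rule, Vajk1 to Vajk4 were all lower in Tet null, and they were 4 of the 5 genes tested. Vajk1 had 1.59 and 1.69 RPKM in Tet null, against 42.6 and 73.9 RPKM in wild type (log2 fold change −4.73, SE 0.33, adjusted P 0.018 from limma). Its levels were 5.76 and 59.3 RPKM in Tet CD and 4.71 and 7.45 RPKM in Tet-GFP, so that Tet CD replicate 3 again stood with wild type. Among chitinases and related genes, Cht5 was higher and Cht6 and Cht7 were lower of 12 tested. Cht5, which degrades chitin at the molt, had 175 and 155 RPKM in Tet null and 32.5 and 19.4 RPKM in wild type (log2 fold change 2.69, SE 0.33, adjusted P 0.028 from limma). Of 11 tanning and pigmentation genes, ple, which encodes tyrosine hydroxylase, and e, which encodes the enzyme that joins beta-alanine to dopamine, were higher and 0 were lower. None of 5 ZP-domain genes of the apical matrix and none of 14 genes of the ecdysone cascade were called, with medians of 0.38 and −0.07. The other 3 IFM comparisons called 0 or 1 gene over the whole table, and 0 in these lists. The chitin synthesis list had a median log2 fold change of 0.34 in Tet null against Tet-GFP, of −1.04 in Tet-GFP against wild type, where 13 of 13 estimates were negative, and of 0.64 in Tet CD against Tet-GFP, where 13 of 13 were positive. The medians of the other cuticle proteins in these comparisons were −0.56, −2.39 and 1.47.

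Markers of other cell types were set beside these changes. Epidermis and tendon markers, 8 in number, summed to 32.5 and 31.8 RPKM in Tet null, 28.8 and 32.4 RPKM in Tet CD, 25.2 and 21.2 RPKM in Tet-GFP and 33.2 and 31.7 RPKM in wild type. Most of each sum in Tet null and in wild type was shot, a gene that is not particular to these cells, at 20.5 and 19.9 RPKM in Tet null and 18.2 and 16.8 RPKM in wild type. None of the 8 was called in Tet null against wild type, 6 of the 8 estimates were negative and the median log2 fold change was −0.24. The epidermal transcription factor grh was at 0.626 to 0.862 RPKM in the 8 libraries. The 7 tracheal markers summed to 148 and 70.7 RPKM in Tet null, 72.2 and 105 RPKM in Tet CD, 76.9 and 29.2 RPKM in Tet-GFP and 128 and 130 RPKM in wild type. Most of each sum in Tet null and in wild type was Gasp, at 128 and 55.5 RPKM in Tet null and 96.6 and 90.3 RPKM in wild type. Of 6 tested, Osi19 was called lower in Tet null than in wild type and 0 were called higher. All 6 estimates were negative, with a median log2 fold change of −0.88. Fat body markers had a median of −0.92 and none of 5 was called. Of 7 neuron markers 6 were higher in Tet null, and their sum was 64.8 and 58.4 RPKM in Tet null, against 10.1 and 9.44 RPKM in wild type. Of 5 glia markers nrv2 and alrm were higher and 0 were lower, LysP and CG18180 among 5 gut markers were higher, and none of 5 hemocyte markers, 8 flight muscle markers or 5 markers of wing disc epithelium and myoblasts was called. The part of epidermal, tendon, tracheal, fat body, neuron, glia and gut RNA in the changes of cuticle protein genes was not tested.

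In wing discs, Tet null and wild type were compared with 3 libraries each. Of 100 cuticle protein genes tested, 5 were lower and 3 higher in Tet null, against 2.48% and 1.67% of all 12631 genes. The number of genes tested rests on the second wild-type library, since without it 55 genes passed the limit on low values. Then 4 genes were lower and 1 was higher, against 1.67% and 1.31% of 9724 genes. The median log2 fold change of the cuticle protein genes was −0.78 with this library and −0.03 without it. Cpr12A rose, and Cpr67Fa1, Cpr65Av and Cpr64Aa fell, both with and without it. Of these genes only Cpr12A was called in every alternative fit.

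Cpr12A (chrX:13543643-13544907) had 157, 146 and 157 RPKM in Tet null wing discs, against 44.0, 31.5 and 30.6 RPKM in wild type (log2 fold change 2.12, SE 0.17, adjusted P 6.2e-08 from limma). The groups were far apart and each was tight, and without wild-type replicate 2 the change was 2.05 (SE 0.15, adjusted P 0.0027). Cpr65Ec had 62.1, 53.0 and 42.3 RPKM in Tet null and 32.1, 28.6 and 17.7 RPKM in wild type (log2 fold change 1.02, SE 0.20, adjusted P 0.0036). Cpr49Ah had 72.4, 58.4 and 88.5 RPKM in Tet null and 36.6, 37.0 and 50.1 RPKM in wild type (log2 fold change 0.81, SE 0.18, adjusted P 0.011). In both genes the groups did not overlap, but without wild-type replicate 2 neither was called, with adjusted P values of 0.085 and 0.11 from limma. In IFM the means of these 3 genes were 0.143 RPKM for Cpr12A, 0.143 RPKM for Cpr65Ec and 0.072 RPKM for Cpr49Ah.

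Cpr64Aa, high in both tissues, had 43.6, 28.0 and 50.5 RPKM in Tet null wing discs and 93.2, 62.1 and 117 RPKM in wild type (log2 fold change −1.14, SE 0.22, adjusted P 0.0034 from limma). Without wild-type replicate 2 its change was −1.39 (adjusted P 0.038). Cpr65Av had 0.211, 0.0648 and 0.349 RPKM in Tet null and 2.83, 4.46 and 2.48 RPKM in wild type (log2 fold change −2.39, SE 0.42, adjusted P 0.0014). The called gene with the lowest level in Tet null was Cpr67Fa1 (chr3L:10889990-10890700), with 0, 0 and 0.0578 RPKM in Tet null and 2.60, 1.99 and 4.23 RPKM in wild type. Summed over libraries this was 1 read in Tet null and 109 reads in wild type, a ratio of wild type to Tet null of 138 (exact 95% interval 24.3 to 5515, counting error only). Without wild-type replicate 2 this ratio was 162 (28.2 to 6455). The fitted log2 fold change of Cpr67Fa1 was −2.68 (SE 0.52, adjusted P 0.0031 from limma) and depends on the 0.5 added to the values.

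Twdlbeta and Cpr31A were called lower only with the second wild-type library. Twdlbeta had 3.60, 2.90 and 3.76 RPKM in Tet null wing discs and 5.33, 6.46 and 8.53 RPKM in wild type (log2 fold change −0.87, adjusted P 0.015). Without wild-type replicate 2 its adjusted P was 0.090. Cpr31A had 0.662, 0.879 and 0.703 RPKM in Tet null and 2.38, 6.99 and 1.48 RPKM in wild type (log2 fold change −1.49, SE 0.40, adjusted P 0.038), where the second library is the highest, and without it the adjusted P was 0.12. Lcp9 showed the reverse, with 6.54, 7.49 and 13.7 RPKM in Tet null and 30.1, 4.70 and 39.8 RPKM in wild type. It was called without the second library (log2 fold change −1.92, SE 0.30, adjusted P 0.028 from limma) and not with it (adjusted P 0.25).

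The larval cuticle genes Lcp1 to Lcp4, next to each other on chromosome 2R, were among the higher genes in wing discs and varied widely within groups. Lcp1 had 44.0, 168 and 73.4 RPKM in Tet null and 292, 88.4 and 179 RPKM in wild type. Lcp4 had 57.4, 127 and 124 RPKM in Tet null and 431, 72.7 and 272 RPKM in wild type, and without wild-type replicate 2 its log2 fold change was −1.82 (adjusted P 0.059). Lcp2 had 20.4, 51.5 and 37.6 RPKM in Tet null and 105, 30.3 and 64.4 RPKM in wild type. Lcp3 had 25.9, 84.6 and 54.3 RPKM in Tet null and 35.2, 9.84 and 47.5 RPKM in wild type, a log2 fold change of 0.93 (adjusted P 0.22). The groups overlapped in all 4 genes, and without wild-type replicate 2 they did not overlap in Lcp1, Lcp2 and Lcp4, which were lower in Tet null. In other abundant genes the libraries of both genotypes lay close together, as in Cpr51A, with 15.3, 17.4 and 13.7 RPKM in Tet null wing discs and 14.6, 18.5 and 17.0 RPKM in wild type, and Cpr49Ag, with 48.2, 53.6 and 56.3 RPKM in Tet null and 62.8, 46.2 and 56.4 RPKM in wild type. Lcp65Ab1 and Lcp65Ab2, near-identical by name and position, had 6.32 to 14.6 RPKM and 5.54 to 12.9 RPKM in Tet null, and their reads may be shared.

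Samples of the same number deviated together weakly in wing discs, as did Tet null 1 and wild type 3, and the labels state no pairing. With the replicate number as a block, 14 cuticle protein genes were lower and 6 higher in Tet null, against 4.69% and 2.72% of all genes. Lcp1, Lcp2, Lcp4, Lcp9 and Lcp65Ac were among those lower, and Lcp3, Lcp65Ab1 and Lcp65Ab2 among those higher. In that fit each gene has 2 residual degrees of freedom and its spread was set wholly by the trend over all genes, so that genes with a wide spread of their own are called more easily. Leaving out a library also moved the counts. The spread was set wholly by the trend, with the same limit, without Tet null replicate 1, 2 or 3 and without wild-type replicate 1. Without Tet null replicate 1, 7 were lower and 6 higher, against 268 and 169 of all 13763 genes. Leaving out Tet null replicate 2 gave 10 lower and 3 higher, against 411 and 263 of 13523, and leaving out Tet null replicate 3 gave 11 and 3, against 272 and 177 of 13735. Without wild-type replicate 1 the counts were 8 lower and 6 higher, against 398 and 355 of 13637, and without wild-type replicate 3 they were 5 and 4, against 459 and 459 of 13667. The replicate block and these 5 fits include wild-type replicate 2. Without wild-type replicate 2, the groups did not overlap for 17 of 55 genes that were lower and 5 that were higher in Tet null, against 19% and 21.1% of all genes.

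**Figure D5:**
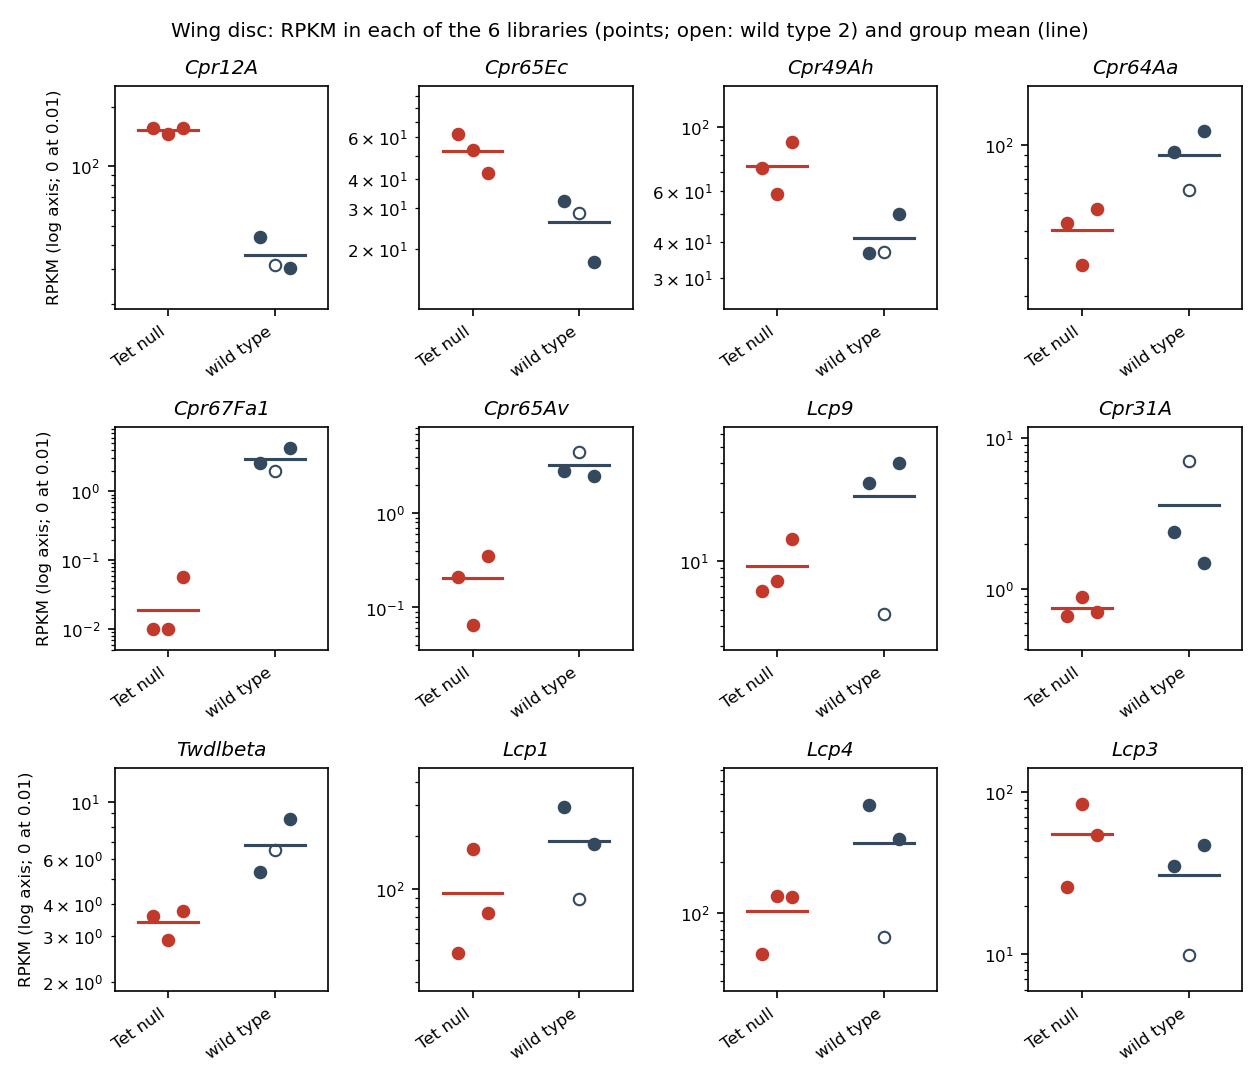
RPKM of 12 cuticle protein genes in each wing disc library (points, log axes that differ between panels, values of 0 drawn at 0.01), for 3 Tet null and 3 wild-type libraries, with the mean of each genotype as a line. The open point is wild-type replicate 2. Cpr12A is higher in all Tet null libraries, and Cpr67Fa1, Cpr65Av and Cpr64Aa are lower in all of them, while in Lcp9, Lcp1 and Lcp4 the open point lies within or below the Tet null libraries.

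Among the other lists in wing discs, Gasp and verm were higher and obst-B was lower of 15 chitin synthesis and assembly genes, Cht7 was higher of 13 chitinases and related genes and nyo was higher of 11 ZP-domain genes. None of 9 tanning genes, 14 genes of the ecdysone cascade or 7 other cuticle proteins, Vajk1 to Vajk4 included, was called. Gasp and verm are also tracheal markers. The tracheal list summed to 568, 507 and 551 RPKM in Tet null wing discs and to 379, 273 and 398 RPKM in wild type. The epidermis and tendon markers summed to 721 to 810 RPKM in Tet null and to 574 to 800 RPKM in wild type, with grh at 93.2 to 101 RPKM in Tet null and 79.5 to 118 RPKM in wild type and sr called lower. All 5 fat body markers tested were higher in Tet null, summing to 153, 142 and 159 RPKM, against 70.3, 51.9 and 25.1 RPKM in wild type. Hemocyte markers summed to 34.7, 51.0 and 25.7 RPKM in Tet null and to 17.6, 24.9 and 9.65 RPKM in wild type, with He, Pxn and Hml called higher, and the myoblast markers Him and twi were called lower. Without wild-type replicate 2, verm, nyo and Lsp2 were still called higher and obst-B, Him and twi lower, and NimC1, a hemocyte marker, was also called higher. Gasp, Cht7, sr, He, Pxn, Hml and the other 4 fat body markers were then not called, although all 5 fat body and all 6 hemocyte markers tested had positive estimates, with medians of 1.69 and 1.34. The part of epidermal, tracheal, fat body, hemocyte and myoblast RNA in the wing disc changes was not tested.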

How the data were processed

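RNA was extracted with Trizol and libraries were made with the Ovation SoLo kit. The authors trimmed reads with Cutadapt (Trimmomatic 0.32 stands in the processing notes), aligned them to dm6 with HISAT2 2.1.0, counted them with HTSeq 0.11.2 and tested with DESeq2 1.22.2. The deposited values are RPKM with decimal commas, recorded under the unit other, and no counts were used here. Strand setting and treatment of reads with several matches are not given in the sources used here. Column numbers of Tet CD and Tet-GFP (1 and 3) differ from their labels (1 and 2). Each table was normalized separately.

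Tests used limma 3.58.1 in R 4.3.3 (eBayes with trend) on log2(RPKM + 0.5), pair by pair, for every gene whose mean over the compared libraries reached 0.5 RPKM. Genes were called at a Benjamini-Hochberg adjusted P under 0.05 over all genes tested and a fold change over 1.5. A pseudocount and a limit on low values can change calls of low genes. Tables and plots used Python 3.11.15, pandas 2.3.3, numpy 2.4.6 and matplotlib 3.10.9. Coordinates are from Ensembl BDGP6.54 (dm6). On simulated data with 2-fold and 4-fold changes, the fits recovered 5% and 67% in Tet null against wild-type IFM. They recovered 6% and 53% in Tet null against Tet-GFP, 2% and 52% in Tet-GFP against wild type and 46% and 68% in wing discs. In Tet CD against Tet-GFP they recovered 0% of either.

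Reads were estimated from the spacing of low values, as totals of 35.7 to 49.1 M in IFM and 21.5 to 31.2 M in wing discs. Of 706 values of cuticle protein genes worth 20 reads or fewer, 100% lay within 0.1 of a whole read, as did 99.4% (IFM) and 98.4% (wing disc) of such values over all genes.

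The genes named are those called in any comparison, the 3 largest rises and falls in each and the 8 highest per tissue. Others were named after their values were seen, and near-identical proteins could not be looked up. The members and the lists were chosen with earlier results of these data known. The labels number the wing disc samples but do not state a pairing. Deviations from group means correlated weakly between same-numbered samples, at 0.176, 0.303 and 0.155. Tet null 1 and wild type 3 also correlated, at 0.191, so the numbers may not mark pairs, and the replicate block was used only as an alternative. Alternatives were other pseudocounts and limits, median-ratio scaling, eBayes without trend, one fit for all IFM groups, a replicate block and each replicate left out, and, chosen after seeing the data, voom on the recovered reads and the wing disc lists without wild-type replicate 2.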

Additional observations from a re-analysis of the deposited data

How the results depend on the processing

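Over all alternatives, 117 of 150 counts of called genes stayed within 1.5 times. Counts that stayed at 0 are among these and say little about stability. The main counts were 0 in all comparisons except Tet null against wild type, in IFM and in wing discs. Of the 575 values of single genes, 464 kept their direction and side of the threshold, 88 lost and 16 gained a call and 7 changed sign. In Tet null against wild-type IFM, 0 genes were called higher with median-ratio scaling, with a pseudocount of 0.1 and with no limit on low values, where 4 were called lower, and with 1 replicate left out 0 to 6 were lower and 0 higher. All IFM groups in one fit gave 7 lower in Tet null against wild type, against 263 of all 8466 genes. Voom on the recovered reads, chosen after seeing the data, gave 14 lower and 1 higher there, against 299 and 818 of all 8446 genes. Edg91 was then the gene called higher, and Cpr65Ax2 was not called. In Tet null against Tet-GFP, all IFM groups in one fit gave 2 lower, against 115 of all 8369 genes. In Tet-GFP against wild type, voom on the recovered reads, an alternative chosen after seeing the data, gave 1 lower, against 6 of all 8138 genes. The difference of the Tet null and Tet CD effects had 0 to 2 genes lower with 1 replicate left out. In wing discs 2 genes were lower and 1, Cpr12A, was higher with no limit, with eBayes without trend and with voom. The 2 lower were Cpr65Av and Cpr67Fa1 in the first of these fits and without trend, but Cpr64Aa and Cpr66D with voom. The counts were 14 and 6 with the replicate block, and 4 to 11 and 1 to 6 with 1 replicate left out. Leaving out 1 replicate turned the sign of a few named genes, where the log2 fold change ran from −0.11 to 2.42 for Cpr62Bb in Tet null against Tet-GFP, from −0.00 to 1.09 for TwdlT in Tet-GFP against wild type, and from −1.88 to 0.63 for TwdlT and from −1.34 to 0.27 for Cpr50Cb in Tet CD against Tet-GFP. In the difference of effects, Cpr65Ax1 turned to −0.26 without wild-type replicate 1 and to −0.15 without Tet CD replicate 1, and Edg91 ran from −0.38 to 2.30. The cause was not tested.

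The replicate block left the counts of Tet null against wild-type IFM at 10 lower and 1 higher, with Ccp84Ae, Ccp84Af and Edg91 in place of Cpr64Ac, Ccp84Ag and Cpr65Ax2 (r of same-numbered deviations 0.0864), and Tet CD against Tet-GFP at 0 (r 0.475). These 2 pairs each were not taken as paired. With a block within each pair of groups, the difference of the Tet null and Tet CD effects had 6 cuticle protein genes lower (Ccp84Ae, Ccp84Af, Cpr30B, Cpr30F, Cpr51A and Cpr76Bb) and 0 higher, against 63 lower and 39 higher of all 8344 genes. No paired analysis was possible for Tet null against Tet-GFP or Tet-GFP against wild type because their columns share only number 1. Where a group was left with 1 library, that library is assumed to vary like the other group.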
